A study of Homo sapiens with 2 samples.

Results

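The nuclear pore complex is the channel through which RNA and protein pass between nucleus and cytoplasm. Its proteins, the nucleoporins, form stacked rings in the nuclear envelope, a central channel lined with phenylalanine-glycine (FG) repeats, filaments on the cytoplasmic face and a basket on the nuclear face. Importins and exportins carry cargo through the channel, and the small GTPase RAN, kept in its GTP form in the nucleus, sets the direction. SR proteins, the family of splicing regulators to which SRSF1 belongs, are imported by TNPO3 (transportin-SR), which recognises their phosphorylated arginine-serine domain.

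The genes described here are the rows of type mRNA in the deposited gene table whose symbols begin with NUP, KPNA, KPNB, XPO, IPO or TNPO and a number or, for XPOT, the letter T, together with AAAS, NDC1, RAE1, SEH1L, TPR and CSE1L. This rule, which uses names only, found 51 of 40205 rows: 26 nucleoporins, 18 importins and 7 exportins. The study sequenced RNA of RKO, a long-established line of human colon carcinoma cells, harvested 48 h after they received an siRNA against SRSF1 or a control siRNA. Each group was 1 library of 1 cell line, so there was no replicate check and no test between the groups. The siRNA sequences were not used here.

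The deposited values were FPKM, fragments scaled to the length of the gene model and to the fragments of the library. The fragment totals recovered from them were 23852089 in the SRSF1 siRNA library and 23138519 in the control library, and mapped reads made up 75.9% and 70.4% of all reads. Of 10 intestinal epithelial markers, EPCAM, KRT8, KRT18 and CDX2 were measured, while CDH1, CDH17, CDX1, KRT19, KRT20 and VIL1 were listed at 0 in both libraries. No marker of leukocytes, fibroblasts or endothelium reached a mean FPKM of 1. SRSF1 was at 32.7 FPKM in the SRSF1 siRNA library, against 103 FPKM in the control library, which is 31.7% of the control level. In bulk RNA, fewer cells with a transcript and less of it per cell cannot be told apart.

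Of the 51 genes, 48 had a mean over both libraries of 1 FPKM or more. The other 3, the importin alpha gene KPNA7 and the nucleoporin relatives NUP210L and NUP62CL, were listed at 0 in both. The measured genes were abundant, and 44 of them lay above the control-library median of all 10064 mRNA rows with a mean FPKM of at least 1, which was 10.7 FPKM. The lowest of the 48, IPO13, was at 2.55 FPKM in the SRSF1 siRNA library and 3.38 FPKM in the control library, so no gene entered through the level of 1 library alone.

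Differences are on the log2(FPKM + 1) scale, with control siRNA subtracted from SRSF1 siRNA, and a gene is said to have risen or fallen where this difference reached 1.5-fold. None of the 48 genes rose, against a background of 0.755% of the 10064 mRNA rows. The genes that fell were 3: the tRNA exporter XPOT, the nucleoporin AAAS and the nucleoporin NUP37. They make up 6.25% of the 48, where 3.23% of all mRNA rows fell, a gap that rests on 3 genes. The gap was not kept under quantile normalization, where 1 of the 48 fell, against 1.997% of all mRNA rows. Nor was it kept with the trend on transcript length removed, where 1 fell, against 1.994%. Under the other processing tried 3 genes fell. The share of all mRNA rows was then 5.962% from whole counts, 5.475% with a pseudocount of 0.1 and 4.734% with rescaled columns. There the gap was narrower than as deposited. It was wider with the mRNA median subtracted (2.196%), with no filter (2.494%) and at a mean FPKM of at least 5 (2.999%). Within a smaller limit, a difference of 0.32 in either direction, were 41 genes, or 85.4%, against 79.5% of all mRNA rows. Of all mRNA rows 40.1% were above 0 as deposited, the background to each count of genes above or below 0 in the deposited values. It is not the background to such counts under other processing. Subtracting the mRNA median, for example, sets the median of all mRNA rows to 0.

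Of the 3 genes that fell, 1 encodes an exportin and 2 encode nucleoporins. XPOT, exportin-t, carries mature tRNA out of the nucleus. It had 38.0 FPKM in the SRSF1 siRNA library and 60.8 FPKM in the control library, a ratio of 0.626 (95% counting interval 0.600 to 0.653). AAAS encodes ALADIN, a WD-repeat protein of the pore that is mutated in Allgrove syndrome. Its level was 7.10 FPKM with SRSF1 siRNA and 11.8 FPKM with control siRNA, a ratio of 0.602 (0.521 to 0.695). NUP37, a small WD-repeat subunit of the outer ring, was at 10.7 FPKM with SRSF1 siRNA and 17.3 FPKM with control siRNA, a ratio of 0.619 (0.540 to 0.707). The counting intervals lie below 1 for each, but they hold sampling of fragments only. For AAAS and NUP37 the 1.5-fold rule, a difference of 0.585 in size, depended on the processing. Under quantile normalization both were at -0.58, and with the trend on transcript length removed both were at -0.54. XPOT kept its call, at -0.59 and -0.65. No exon of another gene in GENCODE 29 overlaps XPOT or AAAS, whereas an antisense RNA, AC079907.1, overlaps an exon of NUP37, and whether strand was used in the counting is not stated.

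All 3 genes lie on chromosome 12, a shared feature noticed after their values were seen. In GENCODE 29 on GRCh38, AAAS spans 53307456 to 53324864 on the minus strand, XPOT spans 64404350 to 64451127 on the plus strand and NUP37 spans 102073103 to 102120124 on the minus strand, so they are far apart. Their promoters are shown because these are the genes that fell. Each is the RefSeq GRCh38.p14 window from 250 bases before to 50 bases after the gene start in RefSeq, printed along the gene's strand, with capitals for matches on either strand to the SP1 letters GGGCGG or to the NF-Y letters CCAAT. The windows are chr12:64404142-64404441 on the plus strand for XPOT, chr12:53321561-53321860 on the minus strand for AAAS and chr12:102120065-102120364 on the minus strand for NUP37. For AAAS the annotations differ: the RefSeq start lies 3254 bases downstream of the outermost GENCODE start, and 5 of the 20 GENCODE transcripts start within the window. The RefSeq starts of XPOT and NUP37 lie 42 and 10 bases downstream of theirs.
XPOT: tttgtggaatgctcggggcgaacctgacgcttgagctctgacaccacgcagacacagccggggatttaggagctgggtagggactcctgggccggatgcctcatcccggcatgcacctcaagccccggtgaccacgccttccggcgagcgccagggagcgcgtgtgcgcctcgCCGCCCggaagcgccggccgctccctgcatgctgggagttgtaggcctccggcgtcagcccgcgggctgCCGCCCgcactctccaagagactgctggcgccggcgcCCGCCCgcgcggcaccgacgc
AAAS: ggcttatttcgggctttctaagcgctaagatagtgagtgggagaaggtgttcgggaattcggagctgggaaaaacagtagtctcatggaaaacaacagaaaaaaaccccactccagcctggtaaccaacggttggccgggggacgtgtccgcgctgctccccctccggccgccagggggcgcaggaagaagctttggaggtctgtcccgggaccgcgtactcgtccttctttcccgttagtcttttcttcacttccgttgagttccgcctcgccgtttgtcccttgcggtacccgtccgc
NUP37: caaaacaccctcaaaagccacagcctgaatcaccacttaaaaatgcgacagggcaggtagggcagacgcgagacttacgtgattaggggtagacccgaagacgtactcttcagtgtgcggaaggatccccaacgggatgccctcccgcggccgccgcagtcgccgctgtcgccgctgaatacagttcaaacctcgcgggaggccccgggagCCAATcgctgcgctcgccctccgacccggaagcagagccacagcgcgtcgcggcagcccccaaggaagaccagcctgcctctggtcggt

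The SP1 motif occurs 3 times in the XPOT window, each time on the opposite strand, and that of NF-Y 1 time in the NUP37 window. The AAAS window, which does not reach the outermost start of the gene in GENCODE, holds no match to any of the 5 motifs searched, which were those of SP1 and NF-Y, the ETS letters CCGGAAGT, the E-box CACGTG and the ATF4 element TGATGNAA. No matches overlapped in these windows. Of 35116 promoters in the table, 45.0% hold the SP1 motif, 34.6% that of NF-Y, 4.14% that of ETS, 7.26% the E-box and 3.62% that of ATF4. Of the 43 measured genes with a promoter there, 24 hold the SP1 motif, 20 that of NF-Y, 6 that of ETS, 6 the E-box and 1 that of ATF4. The 35116 promoters outnumber the 19784 mRNA rows and were not limited to measured genes, so they are an unlike background for these counts. The shares over measured mRNA genes alone were not computed, and enrichment of a motif was not tested.

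The other 2 genes of this group on chromosome 12 were also below their control levels. NUP107, an outer ring subunit, was at 0.853 times (0.819 to 0.889), and IPO8, an importin, at 0.925 times (0.892 to 0.958). Over the chromosome as a whole the median was near that of all genes. Its 537 mRNA rows with a mean FPKM of at least 1 had a median difference of -0.047, against -0.055 over all 10064. Of the 537 rows 23 fell (4.28%, against 3.23% of all mRNA rows), and these include XPOT, AAAS and NUP37. By chromosome this share ran from 1.98% on X to 5.16% on chromosome 9. Chromosome 12 took 6.19% of mapped reads in the SRSF1 siRNA library and 6.41% in the control library, or 6.76% and 6.86% of the mapped reads outside chromosome M. Of those 537 rows 42.3% were above 0.

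**Figure D1:**
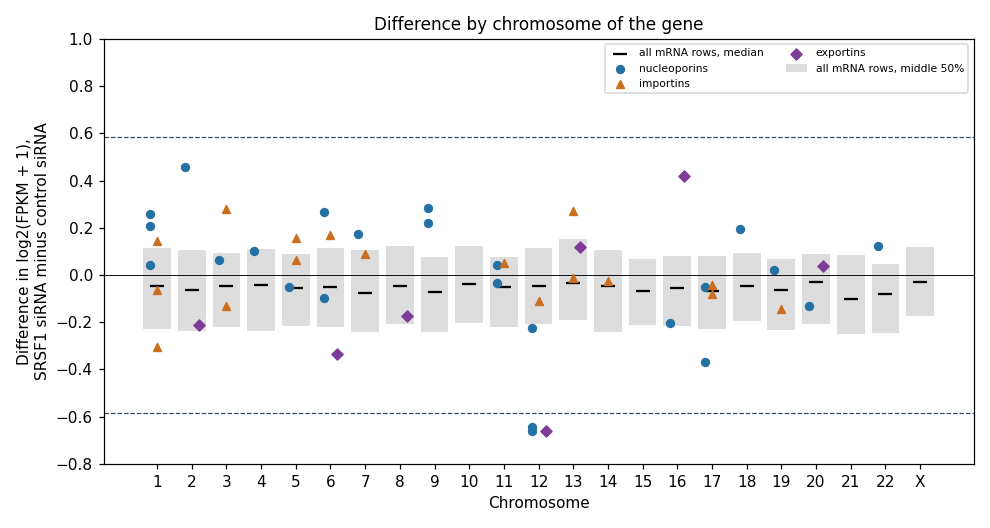
Difference between the libraries, SRSF1 siRNA minus control siRNA, in log2(FPKM + 1) for the 48 measured genes by chromosome (nucleoporins as circles, importins as triangles, exportins as diamonds), over the median and middle 50% of all mRNA rows of that chromosome. Dashed lines mark 1.5-fold, and XPOT, AAAS and NUP37 on chromosome 12 are the points below the lower line.

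TNPO3, the import receptor of SR proteins, was near its control level in cells with less SRSF1 transcript. It was at 56.9 FPKM in the SRSF1 siRNA library and 53.5 FPKM in the control library, a ratio of 1.06 (1.03 to 1.10). The recovered counts behind these values were 6206 and 5659 fragments, and no exon of another gene overlaps the gene, which spans 128954180 to 129055173 of chromosome 7, minus strand. Its difference of 0.088 compares with a median of -0.055 over all mRNA rows. The other transportins, TNPO1 and TNPO2, import proteins with a different signal, a proline-tyrosine signal, such as hnRNP A1. TNPO1 was at 39.3 and 37.6 FPKM with SRSF1 and control siRNA (1.04 times, 0.989 to 1.10), and TNPO2 at 13.7 and 15.3 FPKM (0.899 times, 0.843 to 0.959).

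**Figure D2:**
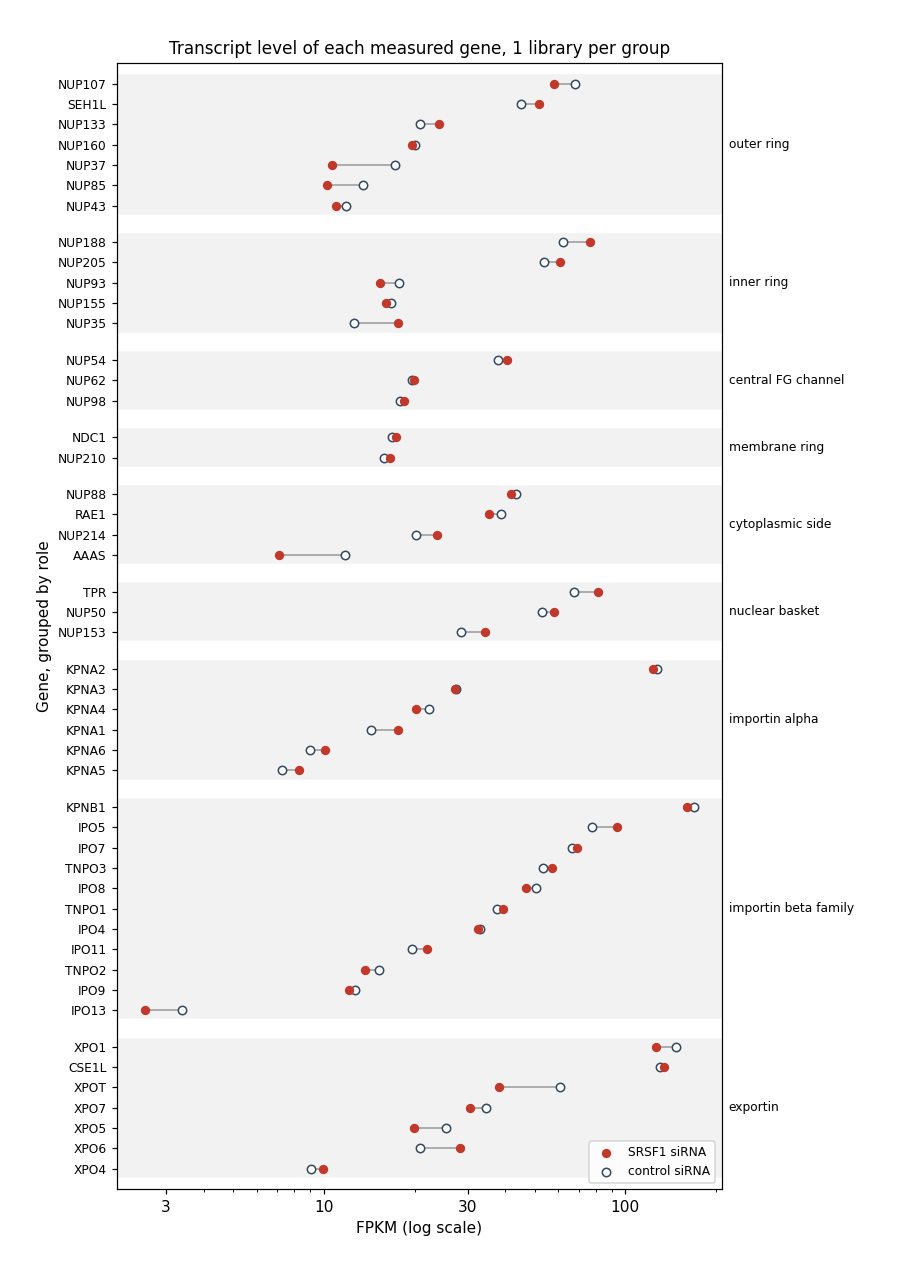
FPKM (log scale) of the 48 measured genes in the SRSF1 siRNA library (filled) and the control library (open), ordered within each role by control level. KPNB1, CSE1L, XPO1 and KPNA2 stand highest at 124 to 160 FPKM with SRSF1 siRNA, and the longest connecting lines are those of XPOT, AAAS and NUP37.

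The carriers of the classical import cycle and the exportin XPO1 had the highest levels per length of all 48. KPNB1, importin beta, had the highest FPKM in both libraries, 160 with SRSF1 siRNA and 169 with control siRNA (0.947 times, 0.921 to 0.973). Its difference of -0.079 was 0.034 under quantile normalization. KPNA2, an importin alpha that links KPNB1 to cargo with a classical import signal, was at 124 and 127 FPKM (0.971 times, 0.939 to 1.00). CSE1L, the exportin that returns importin alpha to the cytoplasm, was at 134 and 131 FPKM (1.03 times, 1.00 to 1.05). XPO1 (CRM1), which exports proteins with a leucine-rich signal, was at 127 FPKM with SRSF1 siRNA and 147 FPKM with control siRNA (0.862 times, 0.843 to 0.882). So XPO1 ranked above CSE1L in the control library and below it in the SRSF1 siRNA library.

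No importin rose or fell, and all 17 measured ones stayed within a difference of 0.32. Their median difference was -0.012, which turned positive under 4 of the 8 alternatives, and their summed FPKM was 756 with SRSF1 siRNA and 747 with control siRNA, 1.01 times. Of the 6 measured importin alpha genes, 3 were above 0 and 3 below, or 5 and 1 with the mRNA median subtracted or the length trend removed. KPNA1 had the highest difference of them, at 17.6 FPKM with SRSF1 siRNA and 14.4 FPKM with control siRNA (1.23 times, 1.14 to 1.33), and KPNA4 the lowest, at 20.3 and 22.3 FPKM (0.910 times, 0.872 to 0.948). KPNA6 was at 1.12 times (1.04 to 1.20), KPNA5 at 1.14 times (0.932 to 1.40) and KPNA3 at 0.992 times (0.941 to 1.04). The importin alpha levels spread widely, with KPNA5 lowest at 8.28 FPKM in the SRSF1 siRNA library and 7.25 FPKM in the control library.

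Among the 11 importin beta family genes, 5 were above 0 and 6 below. IPO5, a receptor for ribosomal proteins and histones, was the highest at 93.6 FPKM with SRSF1 siRNA and 77.3 FPKM with control siRNA (1.21 times, 1.18 to 1.24). IPO13, which works in both directions through the pore, was the lowest at 0.755 times (0.636 to 0.894), a difference of -0.30 on the log2(FPKM + 1) scale and -0.41 from whole counts, where it would pass the smaller limit. IPO7, another receptor for ribosomal proteins, was at 69.3 and 66.8 FPKM (1.04 times, 1.01 to 1.07). IPO4 and IPO9, which carry histones among other cargo, were at 0.983 times (0.933 to 1.04) and 0.954 times (0.909 to 1.00). IPO11 was at 1.12 times (1.03 to 1.22), but the table also lists a read-through row, IPO11-LRRC70, at 9.59 FPKM with SRSF1 siRNA and 8.15 FPKM with control siRNA, so the reads of IPO11 could be split and its value is uncertain.

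The exportins ranged from 0.626 times for XPOT to 1.36 times for XPO6, while the nucleoporins ranged from 0.602 times for AAAS to 1.40 times for NUP35. The exportins had a median difference of -0.18 over 7 genes, with 3 above 0 and 4 below. Their summed FPKM was 387 with SRSF1 siRNA and 428 with control siRNA, 0.905 times. The largest gaps within that sum were those of XPOT, at 38.0 and 60.8 FPKM, and XPO1, at 127 and 147 FPKM. XPO5, the exporter of microRNA precursors, was at 19.9 and 25.4 FPKM (0.785 times, 0.745 to 0.828). On the other side, XPO6, the exporter of actin, was at 28.2 FPKM with SRSF1 siRNA and 20.8 FPKM with control siRNA (1.36 times, 1.28 to 1.43). XPO7, a receptor with broad cargo, was at 0.882 times (0.815 to 0.956), and XPO4, which exports the translation factor eIF5A, at 1.10 times (0.987 to 1.22). Exons of POLR1C on the opposite strand overlap XPO5 in GENCODE 29, and POLR1C was at 24.1 and 31.7 FPKM with SRSF1 and control siRNA. The part of its reads in the XPO5 value was not tested.

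**Figure D3:**
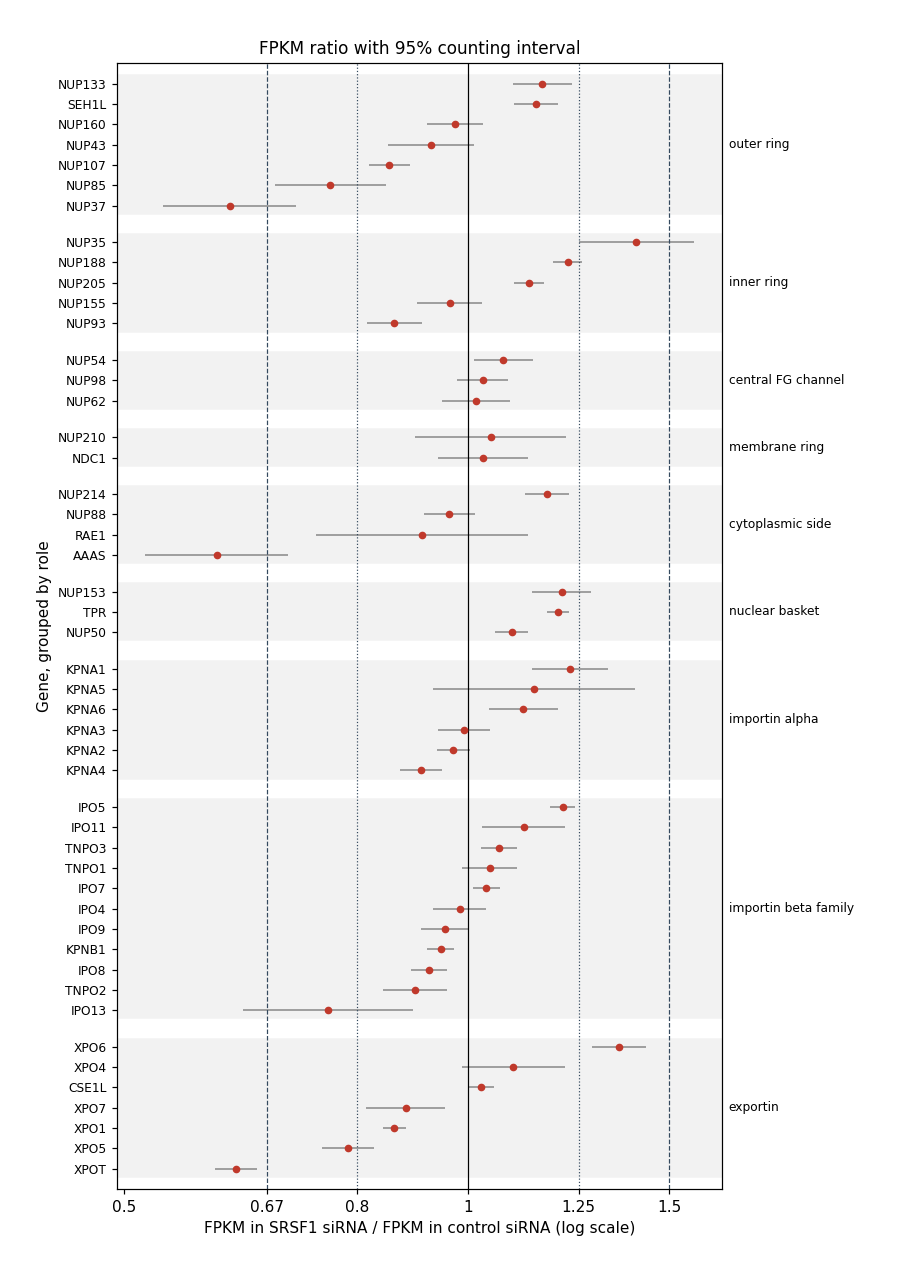
FPKM ratio, SRSF1 siRNA over control siRNA (log scale), of the 48 measured genes by role, with 95% counting intervals. Dashed lines mark 1.5-fold and dotted lines the smaller limit of 0.32 (log2), both drawn on the plain ratio, and XPOT, AAAS and NUP37 are the points left of the lower dashed line.

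The nucleoporins as a class had a median difference of 0.041 over 24 measured genes, with 14 above 0 and 10 below. With the mRNA median subtracted, which sets the median of all mRNA rows to 0, these counts were 17 and 7. The outer ring, built from Y-shaped complexes, held both signs, with 5 of the 7 subunits caught by the name rule below 0. The rule did not catch AHCTF1, at a difference of 0.22, or SEC13, at -0.069. NUP37 was the lowest, and NUP85 followed at 10.2 FPKM with SRSF1 siRNA and 13.5 FPKM with control siRNA (0.758 times, 0.678 to 0.847). The highest of the 7 was NUP133, at 24.2 and 20.8 FPKM (1.16 times, 1.09 to 1.23). SEH1L, which also serves in the GATOR complex of amino acid sensing, was at 51.6 FPKM with SRSF1 siRNA and 45.0 FPKM with control siRNA (1.15 times, 1.10 to 1.20). NUP160 and NUP43 were at 0.974 times (0.921 to 1.03) and 0.928 times (0.850 to 1.01). Although these proteins assemble in 1 complex, their transcripts spread in the SRSF1 siRNA library from 10.2 FPKM for NUP85 to 58.0 FPKM for NUP107, and in the control library from 11.9 FPKM for NUP43 to 68.0 FPKM for NUP107.

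The inner ring holds the scaffold around the channel, and 3 of its 5 genes were above 0. NUP35, a membrane-binding linker of this ring, had the highest difference of all 48 genes, 0.46, short of the 1.5-fold rule. It was at 17.6 FPKM with SRSF1 siRNA and 12.6 FPKM with control siRNA (1.40 times, 1.251 to 1.578). The large scaffold proteins NUP188 and NUP205 were at 76.2 and 60.7 FPKM with SRSF1 siRNA, against 62.3 and 53.7 FPKM with control siRNA. Their ratios were 1.22 (1.19 to 1.26) and 1.13 (1.10 to 1.17). NUP93, which anchors the channel proteins to this ring, was at 15.4 and 17.8 FPKM (0.862 times, 0.816 to 0.911), and NUP155 was at 0.964 times (0.903 to 1.03).

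All 3 basket genes that the name rule caught were above their control levels, and they remained above 0 under every alternative tried. The median difference was 0.26, and between 0.24 and 0.32 over those alternatives, but none of the 3 passed a difference of 0.32. TPR, the long coiled-coil protein of the basket, was at 81.2 FPKM with SRSF1 siRNA and 67.7 FPKM with control siRNA (1.20 times, 1.17 to 1.22). NUP153, which tethers it to the pore, was at 34.3 and 28.4 FPKM (1.21 times, 1.14 to 1.28). NUP50, a mobile partner of importin alpha, was at 57.9 and 53.1 FPKM (1.09 times, 1.06 to 1.13).

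The name rule caught 5 measured genes of the central channel and the membrane ring, and these were above 0 but by at most 0.10. It did not catch the channel gene NUPL1, at 0.52, or the membrane ring genes POM121, at 0.022, and POM121C, at -0.042. NUP62, NUP54 and NUP98 carry FG repeats and line the channel. NUP54 was the highest of them at 40.5 FPKM with SRSF1 siRNA and 37.7 FPKM with control siRNA (1.07 times, 1.01 to 1.14), and NUP62 the lowest at 19.9 and 19.6 FPKM (1.02 times, 0.949 to 1.09). NUP98, whose precursor also yields the outer ring subunit NUP96, was at 18.5 and 17.9 FPKM (1.03 times, 0.979 to 1.08). The membrane proteins NUP210 and NDC1 were at 1.05 times (0.898 to 1.22) and 1.03 times (0.942 to 1.13).

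On the cytoplasmic side the 4 genes that the name rule caught diverged. It did not catch RANBP2, at a difference of 0.20, GLE1, at -0.0058, or NUPL2, at -0.22. Beside AAAS, which fell, NUP214, an FG protein of the filaments, was at 23.7 FPKM with SRSF1 siRNA and 20.2 FPKM with control siRNA (1.17 times, 1.12 to 1.23). Its partner NUP88 was at 41.7 and 43.3 FPKM (0.963 times, 0.914 to 1.01). RAE1, an mRNA export factor that binds NUP98, was at 35.3 and 38.8 FPKM (0.912 times, 0.736 to 1.13). The counts behind each interval are the smallest that gave the FPKM. For 9 genes, RAE1, KPNA5, KPNB1, NDC1, NUP107, NUP210, TNPO1, XPO4 and XPO7, the gene model that goes with these counts was under 50% of the longest transcript, so their true counts may be larger and their intervals may be wider than counting error. The model was 204 bases for RAE1, 901 bases for NUP210 and 1079 bases for KPNA5, where the longest transcripts were 3251, 7193 and 11311 bases.

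Past the smaller limit, a difference of 0.32, were 2 genes on the higher side, NUP35 and XPO6 (4.17%, against 5.46% of all mRNA rows), and 5 on the lower side, XPOT, AAAS, NUP37, NUP85 and XPO5 (10.4%, against 15.1%). The counting interval lay above 1 for 18 of the 48 genes (37.5%, against 20.8% of all mRNA rows) and below 1 for 14 (29.2%, against 36.0%). This count depends on depth, and the measured genes had a median of 2612 recovered fragments in the SRSF1 siRNA library where all mRNA rows had 717. The median difference of the 48 genes was 0.030, against -0.055 over the 10064 mRNA rows, and the SD across genes was 0.25 against 0.26. The median stayed between 0.020 and 0.084 under the alternatives.

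Transcript length moved with the difference in these libraries, and these genes are long, with a median longest transcript of 5344 bases against 3732 bases over all mRNA rows. Spearman's rho between length and difference was 0.20 over the 48 genes and 0.22 over 9981 mRNA rows, which share the same 2 libraries. Among genes of 3500 bases or more, the median difference was 0.041 for 40 genes of the group and -0.016 for 5388 other mRNA rows. Under that length it was -0.091 for 8 genes of the group and -0.11 for 4545 others. AAAS and NUP37, with longest transcripts of 2016 and 2372 bases, are among those 8, whereas XPOT has one of 6414 bases. The part of length in these differences was not tested further.

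**Figure D4:**
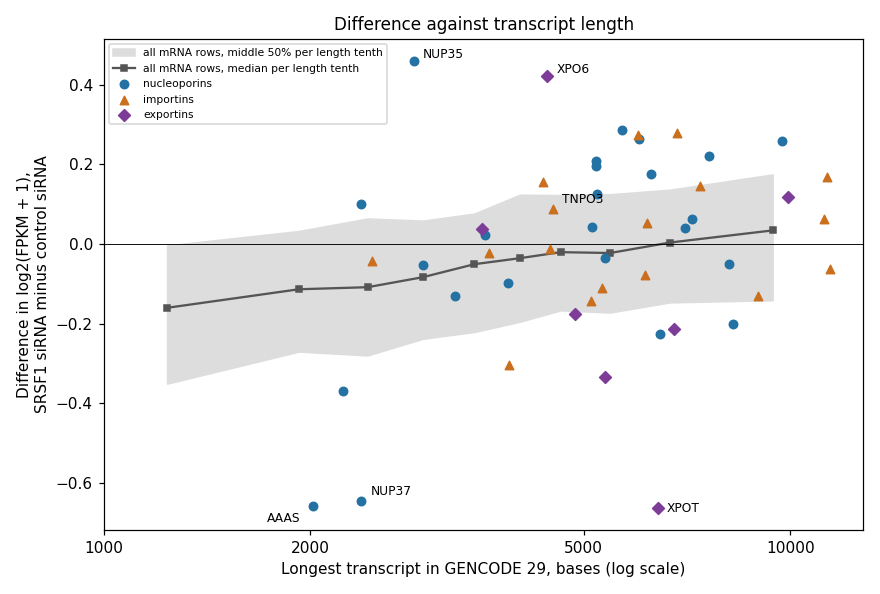
Difference between the libraries, SRSF1 siRNA minus control siRNA in log2(FPKM + 1), against the longest transcript (log scale) for the 48 measured genes, over the median and middle 50% of all mRNA rows in 10 length bins. XPOT lies at 6414 bases and -0.66, far below the band at its length, while TNPO3 lies within the band at 0.088.

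The partners of these genes in the transport pathway were described from lists that overlap none of the 51. Over all mRNA rows 0.755% rose and 3.23% fell, the background to such counts in these short lists. Of 7 measured genes of the RAN cycle, none rose or fell and 6 were below 0, with a median of -0.20, against -0.055 over all mRNA rows. RCC1, the nuclear exchange factor that loads RAN with GTP, was at 40.9 FPKM with SRSF1 siRNA and 59.9 FPKM with control siRNA (0.682 times, 0.637 to 0.731). RANGAP1, which triggers GTP hydrolysis in the cytoplasm, was at 37.9 and 52.3 FPKM (0.725 times, 0.695 to 0.755). RAN itself was at 199 and 223 FPKM (0.895 times, 0.872 to 0.918), and NUTF2, which carries RAN into the nucleus, was the only one above 0, at 1.11 times (1.04 to 1.18). With the length trend removed the RAN list's median was -0.087.

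Of 12 other pore proteins, none rose or fell, 6 were above 0 and 6 below, and the median was 0.0079. NUPL1, the symbol used in the table for the channel protein NUP58, was the highest at 35.2 FPKM with SRSF1 siRNA and 24.3 FPKM with control siRNA (1.45 times, 1.39 to 1.51). MAD2L1, a mitotic checkpoint protein that is found at the pore in interphase, was the lowest at 66.2 and 80.6 FPKM (0.820 times, 0.775 to 0.868). Of 5 other transport receptors and adaptors none rose or fell and the median was -0.077, with C11orf73 (Hikeshi, the importer of HSP70) lowest at 0.725 times (0.612 to 0.859) and PHAX, an adaptor for snRNA export, highest at 1.04 times (0.973 to 1.11).

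SRSF1 is itself an adaptor that hands spliced mRNA to the export receptor NXF1, so mRNA export genes were listed too. None of the 25 measured ones rose or fell, 11 were above 0 and 14 below, and the median was -0.029. The helicase DDX39B, which loads export factors on mRNA, was the highest at 72.8 FPKM with SRSF1 siRNA and 58.6 FPKM with control siRNA (1.24 times, 1.18 to 1.30). THOC5, a subunit of the THO complex, had the lowest difference, -0.44, at 18.5 and 25.5 FPKM (0.725 times, 0.672 to 0.782). NXT2, a relative of the NXF1 partner NXT1, had a lower plain ratio at 2.23 and 3.19 FPKM (0.698 times, 0.509 to 0.955), but a difference of -0.38. NXF1 was at 27.0 and 22.7 FPKM (1.19 times, 1.12 to 1.26), and ALYREF, an adaptor like SRSF1, at 64.6 and 77.1 FPKM (0.837 times, 0.784 to 0.894).

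**Figure D5:**
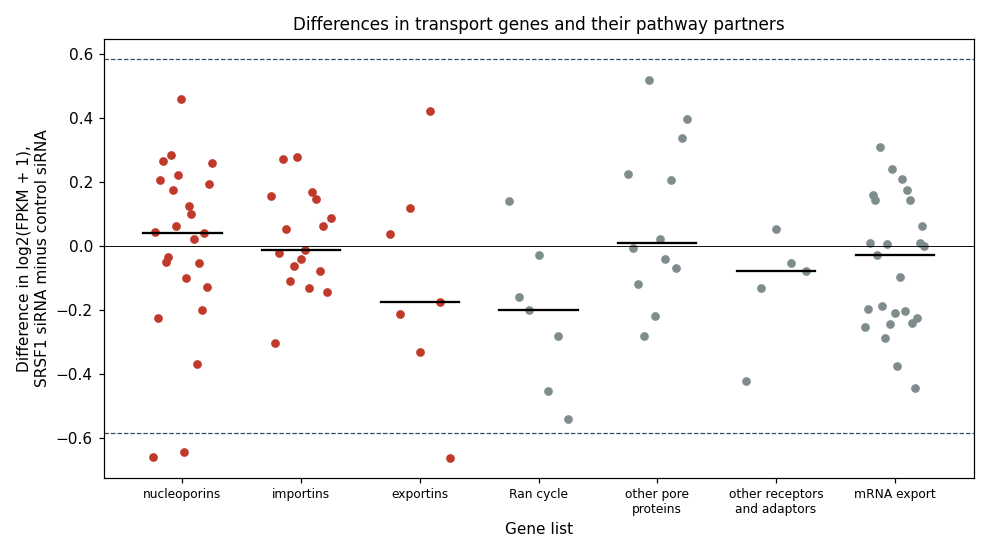
Difference between the libraries, SRSF1 siRNA minus control siRNA in log2(FPKM + 1), of each measured gene in the 3 classes (red) and in the 4 lists of pathway partners (grey), with the median of each as a bar and 1.5-fold as dashed lines. Only AAAS, NUP37 and XPOT lie past a dashed line, and in these deposited values the RAN cycle has the lowest median, at -0.20.

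The values carry the limits of counting by gene. Exons of at least 1 other gene overlap 24 of the 48 genes in GENCODE 29. Among the abundant ones, PCMT1 lies opposite NUP43 and was at 67.7 FPKM with SRSF1 siRNA and 62.1 FPKM with control siRNA. RABEP1 lies opposite NUP88 and was at 58.4 and 51.5 FPKM, above NUP88 itself. KIF2A shares the strand of IPO11 and was at 46.1 and 42.5 FPKM. The part of their reads in the values of NUP43, NUP88 and IPO11 was not tested. The 12 pseudogene rows of these genes in the table had a mean FPKM of at most 0.765, so few fragments were assigned there, and how reads that match a pseudogene and its parent were treated is not known.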

How the data were processed

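RNA of 1 library per group was sequenced, grouped by the labels. The authors deposited 1 FPKM value per gene and library, and read numbers with other summary values (mapping) per library. Per the submitters' processing notes, Bowtie 0.12.2 and hg19 were used. How fragments were counted, on which annotation and strand and with which filters is not stated. The genes and lists were chosen with earlier results of these data known.

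Rows of type mRNA with a mean FPKM of at least 1 were kept (10064). The difference was log2(FPKM + 1), SRSF1 siRNA minus control siRNA, called at 1.5-fold. Ratios are of plain FPKM. A smaller limit of 0.32 (log2) is also counted. With 1 library per group there is no p-value. For 16213 of 16235 rows above 0 in both libraries, the FPKM gave back whole counts of fragments, within a relative tolerance of 2e-12 and gene models up to 60000 bases. They are the smallest that gave the values, and 28 of the 48 measured genes had a recovered model within 10% of the longest transcript. Counts gave exact Clopper-Pearson 95% intervals of the ratio, conditional on the sum, which cover counting error only. PCR copies are not independent molecules. Lengths and coordinates are from GENCODE 29 (GRCh38), promoters from RefSeq, where 45 of the 51 genes matched. Named in full were TNPO3, XPO1, KPNB1, CSE1L, KPNA2, the genes past 1.5-fold and the highest and lowest of each role or list. Python 3.11.15, SciPy 1.17.1 and statsmodels 0.14.6 were used, and the steps were tested on simulated data.

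Alternatives were a pseudocount of 0.1, no filter, a mean FPKM of at least 5, columns rescaled to a sum of 1000000, quantile normalization, whole counts, subtraction of the mRNA median and removal of a lowess length trend (span 0.3).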

Additional observations from a re-analysis of the deposited data

How the results depend on the processing

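Of the genes that fell, 3 in the values as deposited, 1 still passed 1.5-fold under quantile normalization and 1 with the length trend removed, by which AAAS and NUP37 ended just short of it. Of all mRNA rows 1.997% and 1.994% fell under these alternatives, against 3.23% as deposited, so 1 of 48 was near the background there. Under each of the other alternatives 3 genes fell, where the share of all mRNA rows ranged from 2.196% to 5.962%. No gene rose under any alternative. Past a difference of 0.32, 2 genes were higher as deposited, against 5 under quantile normalization and 5 with the median of all mRNA rows subtracted. The share of all mRNA rows past it moved too, from 5.46% to 9.22% and 8.26%. On the lower side, 5 passed it as deposited, against 3 under quantile normalization, 3 with that median subtracted, 3 with the length trend removed, and 6 with a pseudocount of 0.1, with rescaled columns and from whole counts. The median of all mRNA rows was -0.055 as deposited, 0.016 under quantile normalization and 0.0044 with the length trend removed. The TNPO3 difference, 0.088 as deposited, was 0.16 under quantile normalization and 0.14 with the median subtracted. The RAN cycle median, -0.20 as deposited, was -0.11 with no filter, -0.11 under quantile normalization and -0.087 with the length trend removed. Under these the exportin median was the lower of the 2, at -0.18, -0.12 and -0.15. The medians other than that of the RAN cycle stayed within 0.079 of their deposited value, the typical counting error of 1 gene, under all 8 alternatives. Of the other 47 genes, 9 moved beyond their own counting error under quantile normalization, 11 with the median subtracted and 4 with the length trend removed. Of the 48 genes, 7 changed sign under at least 1 alternative, all from below to above 0: KPNB1, IPO4, KPNA3, NUP155 and NUP160 under quantile normalization, IPO4, KPNA2, KPNA3, NUP88, NUP155 and NUP160 with the median subtracted, and IPO4, KPNA2, KPNA3 and NUP88 with the length trend removed. None of the 7 had passed a difference of 0.32. Subtracting the mRNA median, -0.055, raises every gene by the same amount, so under it a sign could change only upward. Which genes moved beyond their counting error there depends only on the size of that error. The importin median, -0.012 as deposited, was 0.020 at a mean FPKM of at least 5, 0.039 under quantile normalization, 0.043 with the median subtracted and 0.035 with the length trend removed. Below 0 on the outer ring were 5 of 7 genes as deposited and 4 under quantile normalization or with the median subtracted. Above 0 on the inner ring were 3 of 5, and 4 under those same alternatives. On the cytoplasmic side 3 of 4 were below 0, and 2 with the median subtracted or the length trend removed. No paired analysis was possible because each group had 1 library. Without replicates the spread between cultures is unknown, so these counts describe 2 libraries.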
